A study of Mus musculus with 59 samples.

Results

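Among the 24391 genes listed in the deposited RNA-seq data, 7 genes were described here for their low expression after loss of *Pcgf1*. They were selected on the measured values themselves, as genes with the largest falls in *Pcgf1*-KO mouse embryonic stem cells (ESCs) or embryoid bodies (EBs). *Spaca7*, *Klk1b4*, *Klk1b3* and *Mobp* were chosen by their fall in ESCs, and *Lrrc18*, *Cd6* and *Ldb2* by their fall in EBs. Their values in the *Pcgf1* line are therefore a description with no test, and tests of these genes are given only for libraries that the selection did not use.

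PCGF1 is the defining subunit of PRC1.1, a variant polycomb repressive complex that also contains KDM2B and BCOR. Through RING1A or RING1B it places a single ubiquitin on histone H2A at CpG islands, and the mark is known for keeping developmental genes silent in ESCs.

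The series holds 59 libraries of poly(A) RNA from 6 conditional ESC lines that carry ERT2-Cre, a Cre recombinase made active by 4-hydroxytamoxifen (4-OHT). The *Pcgf1* line (19 libraries) is ERT2-Cre;Pcgf1f/f without 4-OHT (4 control ESC and 5 control EB libraries) and ERT2-Cre;Pcgf1delta/delta after 4-OHT (5 *Pcgf1*-KO ESC and 5 *Pcgf1*-KO EB libraries). The point mutant line (8 libraries, 2 per group) carries Ring1apm/pm in all its groups, that is, a RING1A with a point mutation in its control cells too, and 4-OHT turns its conditional *Ring1B* into Ring1bpm/pm. The remaining lines (8 libraries each, 2 per group) are *Ring1A/B*, in which Ring1a-/- is shared by all groups and Ring1bf/f becomes Ring1bdelta/delta, *Pcgf2/4* (Pcgf2f/f;Pcgf4f/f to delta/delta), *Pcgf3/5* (Pcgf3f/f;Pcgf5f/f to delta/delta) and *Pcgf6* (Pcgf6f/f to delta/delta). ESCs were grown on mouse embryonic fibroblasts with LIF and 3 inhibitors, and EBs are the aggregates that formed in suspension over 2 days without them. In every line the mutant state comes with 4-OHT, so the effect of 4-OHT itself and that of the lost gene cannot be told apart within a line. The labels say neither how many derivations each line comes from nor that replicates were separate cultures. All *p*-values measure only the spread between these libraries.

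Values are TPM, a transcript abundance scaled for length and to the same sum in every library, so depth is unknown and 0 means only that a gene is listed at 0. In the *Pcgf1* line 6241 to 9139 genes per library were listed at 0. *Pcgf1* itself ranged from 10.7 to 13.6 TPM in control and from 0.627 to 2.77 TPM in mutant ESCs, and from 7.30 to 16.6 TPM and from 0.978 to 2.47 TPM, respectively, in EBs. Core pluripotency markers were abundant throughout (summed level 2682 to 3057 TPM in ESCs and 3353 to 4319 TPM in EBs), and early EB markers summed to 94.7 to 252 TPM in ESCs and, in EBs, to between 1599 and 4046 TPM without and between 695 and 2760 TPM with 4-OHT. Replicate 1, replicates 2 and 3, and replicates 4 and 5 belong to separate library series by the headers of the data. Outside the *Pcgf1* and point mutant lines 21 of 32 libraries carry a label that differs from the condition in the name of their data, and their stage markers followed the name. Early EB markers summed to 132 to 206 TPM in the 16 libraries named as ESCs and 672 to 1519 TPM in the 16 named as EBs, and naive pluripotency markers to 2709 to 4359 TPM and 697 to 1907 TPM, whatever the label.

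*Klk1b4* (chr7:51462805-51467124, plus strand) and *Klk1b3* (chr7:51453561-51457721, plus strand) encode serine proteases of the glandular kallikrein family, and 5083 bases separate them in mm9. *Spaca7* (chr8:12573049-12600738, plus strand) encodes a protein of the sperm acrosome. *Mobp* (chr9:120058860-120090602, plus strand) encodes a basic protein of myelin made by oligodendrocytes. *Lrrc18* (chr14:33804568-33828478, plus strand) encodes a leucine-rich repeat protein and lies within *Wdfy4*, which is on the minus strand, with 0 exon bases in common. *Cd6* (chr19:10863831-10904548, minus strand) encodes a T cell surface receptor, and *Ldb2* (chr5:44863372-45190946, minus strand) encodes a cofactor that binds LIM-domain proteins. None of these genes is a marker of ESCs.

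The 250 bases upstream of the annotated starts are shown for *Klk1b4*, *Klk1b3*, *Spaca7* and *Mobp*, the genes chosen in ESCs, since PRC1.1 is known to bind CpG-rich starts. The sequences are those of RefSeq (GRCm38.p6), each of which matched mm9 at 1 place. They read 5′ to 3′ on the plus strand, with every CG in capitals. The windows lie at chr7:51462553-51462802, chr7:51453311-51453560, chr8:12572786-12573035 and chr9:120058610-120058859 of mm9.
Klk1b4: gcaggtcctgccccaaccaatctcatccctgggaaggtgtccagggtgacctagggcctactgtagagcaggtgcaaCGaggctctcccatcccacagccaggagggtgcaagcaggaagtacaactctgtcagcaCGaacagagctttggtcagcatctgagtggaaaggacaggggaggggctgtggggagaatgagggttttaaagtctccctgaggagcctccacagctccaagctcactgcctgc
Klk1b3: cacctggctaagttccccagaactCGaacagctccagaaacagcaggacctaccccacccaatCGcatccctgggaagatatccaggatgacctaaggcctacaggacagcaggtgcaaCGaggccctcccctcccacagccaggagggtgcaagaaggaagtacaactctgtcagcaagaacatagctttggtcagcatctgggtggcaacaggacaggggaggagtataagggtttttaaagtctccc
Spaca7: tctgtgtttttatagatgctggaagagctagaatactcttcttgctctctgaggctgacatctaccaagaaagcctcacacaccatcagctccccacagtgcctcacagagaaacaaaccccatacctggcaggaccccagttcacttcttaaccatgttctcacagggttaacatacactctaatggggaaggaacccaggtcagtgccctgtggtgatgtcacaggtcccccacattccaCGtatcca
Mobp: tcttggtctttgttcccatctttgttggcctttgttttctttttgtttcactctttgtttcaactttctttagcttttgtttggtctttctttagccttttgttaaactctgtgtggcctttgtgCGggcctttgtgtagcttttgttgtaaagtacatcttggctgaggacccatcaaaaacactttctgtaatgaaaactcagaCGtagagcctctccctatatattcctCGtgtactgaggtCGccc

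The 4 windows held few CG, with 2 in *Klk1b4*, 3 in *Klk1b3*, 1 in *Spaca7* and 4 in *Mobp*. The ratio of CG seen to CG expected from the C and G content was 0.094, 0.16, 0.069 and 0.387, respectively. Its median over all promoters was 0.373, so *Mobp* was not low by this measure. The median over 32851 mouse promoters of the same length was 6, and 29%, 37.8%, 18.8% and 44.4% of them held as few or fewer, respectively, so the counts of these genes were not extreme. The letters TATAA, on either strand, were in the windows of *Klk1b3* and *Spaca7* and in 22.8% of all promoters. The windows of *Klk1b3* and *Klk1b4* aligned over 218 columns with 186 identical (85.3%). Sequences of *Lrrc18*, *Cd6* and *Ldb2* are not shown. Of the 1733 genes in the data that the study lists as bound by RING1B in ESCs or EBs (7.11% of all genes), 0 were among the 7 genes.

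*Spaca7* was at 2.64, 1.12, 2.24 and 0.53 TPM in control ESCs (replicates 1 to 4) and was listed at 0 in all 5 *Pcgf1*-KO ESC libraries. In control EBs it was listed at 0 in replicates 1, 2, 3 and 5 and was at 0.31 TPM in replicate 4, and in *Pcgf1*-KO EBs it was at 0.26 TPM in replicate 4 and at 0 in the others. Its expression was thus seen mainly in control ESCs. No fold change is given against a group that is listed at 0.

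*Klk1b4* was at 1.87, 1.01, 2.03 and 1.06 TPM in control ESCs and at 0, 0, 0, 0.36 and 0 TPM in *Pcgf1*-KO ESCs. *Klk1b3* was at 1.76, 0.96, 0.64 and 0.91 TPM in control ESCs and at 0, 0, 0, 0.34 and 0 TPM in *Pcgf1*-KO ESCs. For both genes every *Pcgf1*-KO ESC library lay below every control ESC library, and the one *Pcgf1*-KO library with a value above 0 was replicate 4. The log2 fold change was -3.49 (SE 0.60) for *Klk1b4* and -3.03 (SE 0.53) for *Klk1b3*, on the scale of log2(TPM + 0.1). Both were near 0 in EBs of either state. *Klk1b4* was at 0, 0, 0, 0.28 and 0.18 TPM in control EBs and at 0, 0, 0, 0.47 and 0 TPM in *Pcgf1*-KO EBs, and *Klk1b3* was at 0.54 TPM in replicate 4 of the control EBs and at 0 in the other 9 EB libraries.

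*Mobp* was the most abundant of the 7 genes in control ESCs, at 3.17, 7.46, 7.67 and 4.86 TPM. It was at 0.33, 0.73, 0.74, 0.58 and 0.61 TPM in *Pcgf1*-KO ESCs, below the lowest control library in all 5, with a log2 fold change of -3.03 (SE 0.47). In control EBs it was already low, at 0.13, 0.13, 0.13, 0.43 and 0.27 TPM, and *Pcgf1*-KO EBs had 0.27, 0, 0, 0.22 and 0 TPM, so that the EB groups overlapped near 0.

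*Lrrc18* was present in control cells of both stages, at 1.56, 1.09, 2.93 and 1.67 TPM in control ESCs and at 1.70, 1.28, 1.04, 1.75 and 1.12 TPM in control EBs. It was at 0.09, 0.85, 0.61, 0.39 and 0.46 TPM in *Pcgf1*-KO ESCs (log2 fold change -1.82, SE 0.43) and at 0.06, 0.16, 0, 0.07 and 0.07 TPM in *Pcgf1*-KO EBs (log2 fold change -3.13, SE 0.41). The groups did not overlap at either stage, and among *Pcgf1*-KO cells the mean was 0.480 ± 0.280 TPM in ESCs and 0.0733 ± 0.0585 TPM in EBs (SD, n = 5 each).

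*Cd6* varied little between control ESC libraries, at 1.33, 1.26, 1.5 and 1.1 TPM. It was at 0.16, 0.30, 0.18, 0.05 and 0.12 TPM in *Pcgf1*-KO ESCs (log2 fold change -2.47, SE 0.46). In EBs it was at 1.14, 1.53, 1.12, 2.04 and 1.86 TPM without 4-OHT and at 0.45, 0, 0, 0.26 and 0.06 TPM in *Pcgf1*-KO EBs (log2 fold change -3.00, SE 0.44). *Cd6* and *Lrrc18* were the genes for which control and *Pcgf1*-KO libraries did not overlap at both stages.

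*Ldb2* was an EB gene in this line. It was listed at 0 in 3 of 4 control ESC libraries and at 0.03 TPM in replicate 4, and was at 0.65, 1.96, 1.70, 0.54 and 0.74 TPM in control EBs. In *Pcgf1*-KO EBs it was at 0, 0, 0.18, 0.07 and 0 TPM, below every control EB library, with a log2 fold change of -2.98 (SE 0.36). In *Pcgf1*-KO ESCs it was at 0.07 TPM in replicate 5 and at 0 in the other 4 libraries.

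**Figure D1:**
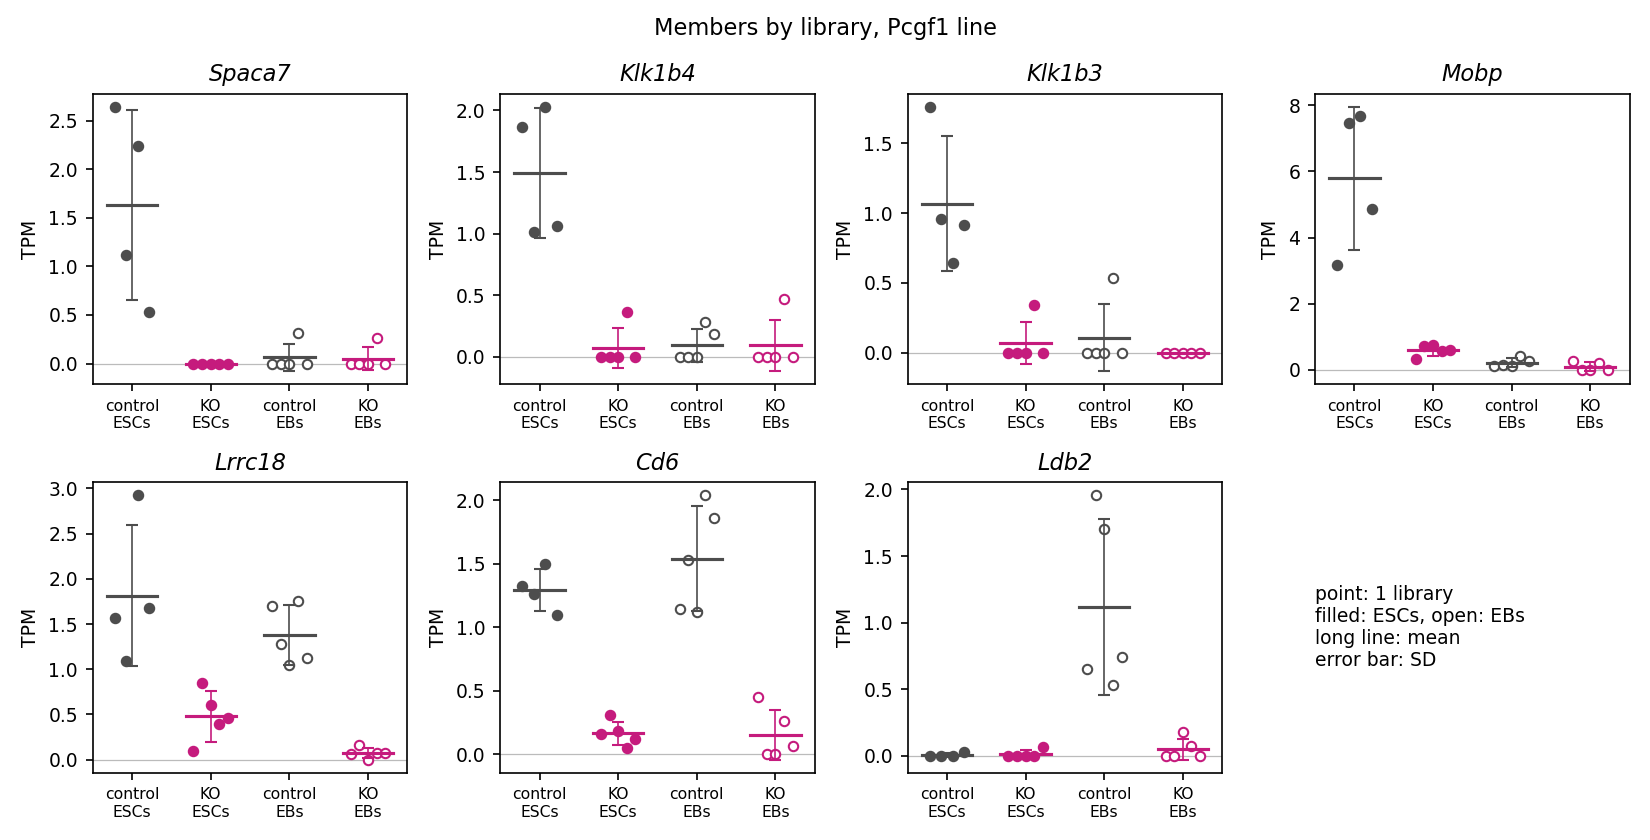
TPM (linear axis) of the 7 genes in each of the 19 libraries of the *Pcgf1* line, by group, with the mean as a long line and the SD as an error bar (n = 4 control ESC and 5 libraries in the other groups). *Spaca7*, *Klk1b4*, *Klk1b3* and *Mobp* stood out in control ESCs, *Lrrc18* and *Cd6* in control cells of both stages, and *Ldb2* in control EBs.

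Across stages in control cells, these genes thus formed 3 patterns. *Spaca7*, *Klk1b4*, *Klk1b3* and *Mobp* were lower in EBs than in ESCs, with log2 fold changes of control EBs against control ESCs between -4.22 for *Mobp* and -2.93 for *Klk1b3*. *Lrrc18* (-0.32, SE 0.43) and *Cd6* (0.20, SE 0.46) were at like levels at both stages, and *Ldb2* was higher in EBs (3.34, SE 0.38). These comparisons share control libraries with the *Pcgf1*-KO comparisons that chose the genes, and are given side by side with no test. In *Pcgf1*-KO cells the same stage comparison gave -2.05 for *Mobp*, -1.63 for *Lrrc18*, -0.32 for *Cd6* and 0.31 for *Ldb2*, all from groups under 1 TPM.

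**Figure D2:**
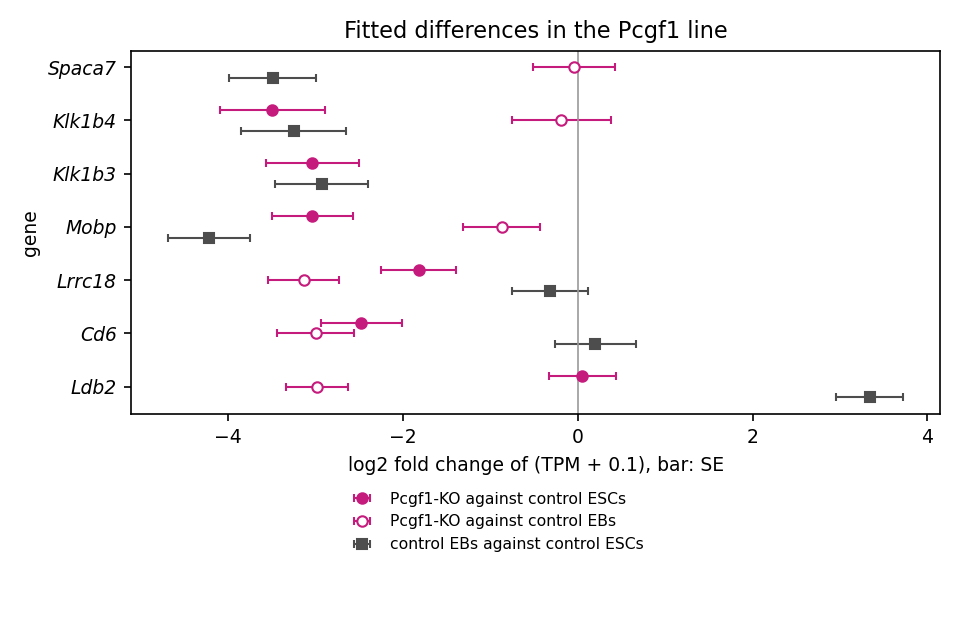
Log2 fold change of TPM + 0.1 (points) with its SE (bars) for each gene in the *Pcgf1* line, for *Pcgf1*-KO against control ESCs, *Pcgf1*-KO against control EBs and control EBs against control ESCs. *Mobp* was at -3.03 in ESCs and -0.87 in EBs, and *Cd6* at -2.47 and -3.00, and no point is drawn for *Spaca7* in ESCs or *Klk1b3* in EBs, where the *Pcgf1*-KO group is listed at 0.

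In ESCs every *Pcgf1*-KO library lay below every control library for 6 of the 7 genes (all but *Ldb2*), and over all 20594 genes fitted this was so for 2.56%. In EBs it was so for 3 of the 7 (*Lrrc18*, *Cd6* and *Ldb2*), against 1.63% of all genes. In the limma fit, 0.32% of all genes were lower in *Pcgf1*-KO ESCs at an adjusted *p* under 0.05 and 0.641% differed in either direction, and in EBs these shares were 0.874% and 1.95%. The genes were selected on these contrasts, so nothing is read from the counts. Among genes past that threshold whose groups lay apart and whose mean reached 1 TPM in either group, *Klk1b3* (-3.03) was the last of the genes chosen in ESCs. In EBs *Ldb2* (-2.98) was the last member and *Ms4a4d* (-2.95) the next gene outside, while *Krt80* (-3.73) and *Piwil1* (-3.03) had falls as large and are not among the 7. The size of the fitted values depended on the pseudocount. With 1 in place of 0.1 the log2 fold changes in ESCs of *Lrrc18*, *Cd6*, *Klk1b4*, *Klk1b3* and *Mobp* lay between -0.91 for *Lrrc18* and -2.03 for *Mobp*, and those of *Lrrc18*, *Cd6* and *Ldb2* in EBs were -1.14, -1.14 and -0.96.

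Over the 19 libraries, log2(TPM + 0.1) of *Klk1b4* followed that of *Spaca7* (Pearson's r 0.93), *Klk1b3* (0.89) and *Mobp* (0.81), and *Lrrc18* followed *Cd6* (0.82). *Ldb2* ran with none of the ESC genes (r -0.28 with *Klk1b4* and -0.38 with *Mobp*). The genes most like each member, among 14332 genes whose mean reached 1 TPM in some group, were *Krt80* (0.94), *Cdhr1* (0.92) and *Pdpn* (0.89) for *Lrrc18*, *Eno1b* (0.86), the deleted *Pcgf1* (0.84) and *Matn3* (0.83) for *Cd6*, and *Rasgrp3* (0.91), *Gabra3* (0.90) and *Thy1* (0.90) for *Ldb2*. *Rcn3* (0.94), *Stab2* (0.93) and *Myh13* (0.92) were most like *Mobp*. *Hadh*, an enzyme of fatty acid oxidation, stood among the 3 genes most like *Klk1b4* (0.88), *Klk1b3* (0.88) and *Spaca7* (0.90). These correlations describe libraries that share groups and library series, and carry no test.

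Some markers of the feeder fibroblasts were lower in *Pcgf1*-KO EBs as well. The 16 feeder markers summed to between 53.9 and 101 TPM in control and between 19.9 and 36.8 TPM in mutant EBs, with no overlap, and 2 of 16 (*Thy1*, log2 fold change -2.69, and *Mmp2*, -1.50) were called lower by limma, with a median of -0.34 over the list. *Col1a1*, the abundant fibroblast collagen, overlapped between the EB groups (5.43 ± 2.32 TPM in control and 4.79 ± 1.09 TPM in mutant EBs, SD, n = 5 each). *Thy1* is also among the genes most like *Ldb2*. In ESCs the same sum was 231 to 310 TPM without 4-OHT and 178 to 253 TPM with it, with 0 of 16 called. Blood cell markers summed to between 284 and 499 TPM in control and between 290 and 445 TPM in mutant ESCs, and to between 34.0 and 76.8 TPM and between 46.6 and 166 TPM in EBs, with 0 of 10 called at either stage. For *Cd6*, *Cd5*, its neighbour and a partner receptor of T cells, was listed at 0 in all EB libraries of the *Pcgf1* line. The T cell gene *Cd3e* was at 0.803 to 8.62 TPM in control and 1.66 to 4.65 TPM in mutant EBs. In ESCs it was at 7.69 to 13.95 TPM and 3.54 to 7.58 TPM, with no overlap. T cell genes and CD6 partners (18 with *Cd6*) summed to 54.6 to 66.4 TPM in control and 44.2 to 51.99 TPM in mutant ESCs. In EBs these sums overlapped (30.6 to 48.6 TPM and 36.2 to 52.6 TPM). The part of T cell RNA in the *Cd6* values was not tested. Stage markers moved with the EB values too, with the naive sum at 566 to 994 TPM in control and 818 to 1792 TPM in mutant EBs, beside the early EB sums above. The part of feeder RNA or of stage in the EB values of *Ldb2*, *Lrrc18* and *Cd6* was not tested. In bulk RNA, fewer cells of a type and less RNA per cell cannot be told apart.

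*Klk1b4* and *Klk1b3* belong to a run of 14 *Klk1* and *Klk1b* genes on chromosome 7, and further genes of this run had lower values in *Pcgf1*-KO ESCs. *Klk1*, tissue kallikrein, ranged from 5.82 to 17.1 TPM in control and from 0.528 to 2.59 TPM in mutant ESCs (log2 fold change -2.60, SE 0.86). *Klk1b5* was at 2.54 to 5.45 TPM and 0 to 0.847 TPM (-2.91, SE 0.76). For neither did the groups overlap, but in the limma fit over all genes neither passed (adjusted *p* = 0.251 and 0.103), nor did *Klk1b16*, which was at most 0.307 TPM in control ESCs and listed at 0 in all *Pcgf1*-KO ESCs (adjusted *p* = 0.106). With the replicate number as a block, under which 5.31% of all genes were called, *Klk1* (adjusted *p* = 0.0131), *Klk1b5* (0.0208) and *Klk1b16* (0.0482) were called lower. In EBs all of these were near 0, where *Klk1* reached 1.90 TPM at most in control and 0.672 TPM in mutant libraries.

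**Figure D3:**
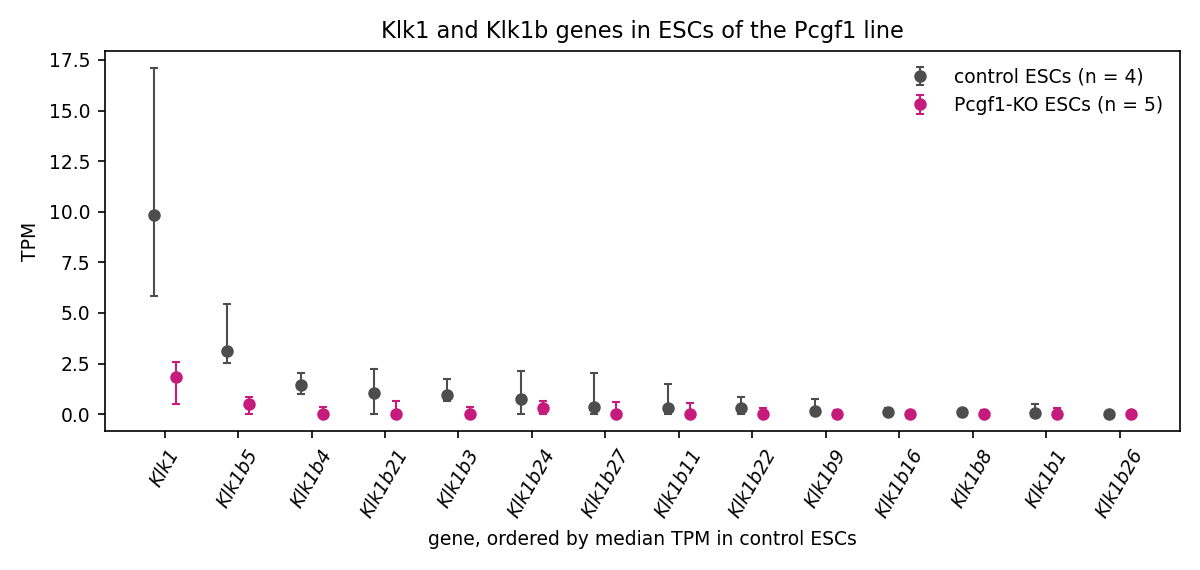
TPM (linear axis) of the 14 *Klk1* and *Klk1b* genes in control (n = 4) and *Pcgf1*-KO (n = 5) ESCs, as the median (point) and the range (bar). *Klk1* had the highest control values (5.82 to 17.1 TPM), and the control and *Pcgf1*-KO ranges of *Klk1*, *Klk1b5*, *Klk1b4* and *Klk1b3* do not meet.

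These genes are close copies of each other. Of the stretches of 50 bases in the coding transcripts, 21.3% of those of *Klk1b4* (most often with *Klk1b5*) and 17.5% of those of *Klk1b3* (most often with *Klk1*) were also in transcripts of other genes, and of stretches of 75 bases, the longer read length, 7.84% and 2.83% were. The split of reads between these genes is therefore uncertain. *Klk1b3* and *Klk1b27* had the same value, 0.536 TPM, in control EB replicate 4. For *Lrrc18*, *Cd6*, *Ldb2* and *Spaca7* 0% of such stretches were shared, and for *Mobp* 0.108% at 50 bases.

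Around the 7 genes, 24 neighbouring genes (up to 2 on each side) were looked at, 23 of them with a value to fit. They were taken by order and not by distance, and the gap to the member reached 737830 bases. In *Pcgf1*-KO against control cells 0 of 23 were called at either stage by limma (unadjusted *p* under 0.05 for 4 in ESCs and 2 in EBs), and their log2 fold changes had medians of -0.20 in ESCs and -0.22 in EBs. With the replicate block, 4 were called in ESCs, the 3 kallikreins above and *Prom1* (-0.96, adjusted *p* = 0.0297). *Prom1* is a membrane protein gene 370101 bases from *Ldb2*, with *Tapt1* between them. In EBs, where 10.4% of all genes were called with the block, 3 were called lower. These were *Prom1* (-1.83, adjusted *p* = 0.00013), *Arhgap22* (-0.91, adjusted *p* = 0.00192) and *Tmem132a* (-1.02, adjusted *p* = 0.000319). *Arhgap22* lies 198734 bases from *Lrrc18*, and *Tmem132a* 27764 bases from *Cd6*. *Wdfy4*, the gene around *Lrrc18*, was not called (-0.45 in ESCs and -0.48 in EBs, SE 0.29 and 0.27).

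Lists of genes with functions related to the members were fitted with limma in the same way. In the kallikrein family 0 of 23 fitted genes were called in *Pcgf1*-KO ESCs (median log2 fold change -0.57, all genes -0.02) and 0 of 23 in EBs (median -0.24, all genes -0.03). With the block the 3 named above were called lower in ESCs, and *Klk8* in EBs (-0.60, adjusted *p* = 0.0327). Summed over the 27 family genes, members included, the level ranged from 35.8 to 63.2 TPM in control and from 18.9 to 29.4 TPM in mutant ESCs. Of the myelin and oligodendrocyte genes that go with *Mobp*, 0 of 14 were called in ESCs (median -0.25), and in EBs 1 was higher and 1 lower (median -0.21). The one called lower was *Mbp*, myelin basic protein, at 5.18 ± 0.930 TPM in control EBs and 1.43 ± 0.359 TPM in *Pcgf1*-KO EBs (SD, n = 5 each; log2 fold change -1.80, SE 0.30, limma adjusted *p* = 0.00407), and the one called higher was *Olig2*, a transcription factor of the oligodendrocyte lineage (1.49). With the block *Olig2* was higher (0.91) and *Mag* (-1.56) and *Myrf* (-0.79) were lower in ESCs, and in EBs *Cnp* (0.46) was higher and *Myrf* (-0.57) lower in addition.

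Of T cell genes and partners of CD6, 0 of 17 were called at either stage (median -0.13 in ESCs and 0 in EBs), and with the block 0 in ESCs and *Lck* in EBs, which was higher (0.55). *Alcam*, the ligand of CD6, was at 0 to 0.687 TPM in control and 0.332 to 0.839 TPM in *Pcgf1*-KO ESCs. In EBs *Alcam* was at 0.384 to 1.94 TPM in control and 0.356 to 2.21 TPM in *Pcgf1*-KO libraries. Of LIM-domain cofactors and their partners, which LDB2 binds, 0 of 21 were called in ESCs (median 0.39), and 2 were called higher in EBs (median 0.02), the LIM-homeobox gene *Lhx5* (1.39) and *Ssbp4* (0.98), which encodes a partner of LDB proteins. With the block *Lhx5* (1.42) and *Lmo4* (0.81) were higher in ESCs, and in EBs *Lhx1* (1.73) and *Lhx2* (2.29) were higher and *Rlim* (-0.88) lower in addition. Of acrosome and testis genes that go with *Spaca7*, 1 of 15 was called higher at each stage, and it was *Dkkl1* (1.56 in ESCs and 1.46 in EBs). Of 27 further *Lrrc* genes, 0 were called at either stage (median 0.04 in ESCs and -0.15 in EBs), and with the block 0 in ESCs and *Lrrc15* in EBs, which was lower (-1.16).

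In the PRC1.1 list only the deleted *Pcgf1* was called, of 10 genes, at both stages (-3.23 in ESCs and -2.84 in EBs), and with the block *Bcor* and *Bcorl1*, subunits of the complex, were called higher at both stages (0.65 and 1.14 in ESCs, 0.67 and 1.11 in EBs). Of 12 naive pluripotency markers 0 were called in ESCs (median -0.06) and 2 were called higher in EBs (median 1.21), *Tfcp2l1* (1.52) and *Nr0b1* (1.26). With the block 1 was lower in ESCs (*Fgf4*, -0.71) and 7 were higher in EBs. Of 9 early EB markers *Otx2* was called lower in ESCs (-2.18) and *Zic2* in EBs (-1.28), with medians of -0.23 and -0.56. With the block *Dnmt3b* was also called, higher in ESCs (1.45) and lower in EBs (-1.29), as was *Pou3f1* in EBs (-1.20). Of 6 core pluripotency markers 0 were called at either stage, and with the block *Utf1* (0.42) was higher in ESCs and *Dppa4* (0.69) higher and *Lin28a* (-0.49) lower in EBs. Of the marker lists for other cells, the block called *Cd68* lower in ESCs (-0.98), *Laptm5* higher in EBs (1.34) and *Dcn* lower in EBs (-3.03). At an unadjusted *p* under 0.05, the lists with 0 genes called in ESCs held 3 kallikrein, 3 myelin, 1 T cell, 6 LIM-domain, 0 *Lrrc*, 1 naive, 0 core pluripotency, 0 feeder and 3 blood cell genes, and those with 0 called in EBs held 2 kallikrein, 2 T cell, 2 *Lrrc*, 1 core pluripotency and 1 blood cell gene. Over all lists, 3 of 179 fitted genes were called in ESCs and 11 in EBs, and with the replicate block 17 and 32.

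The point mutant line offered libraries that the selection did not use, with an intact *Pcgf1* (28 to 46.9 TPM in all 8 libraries). *Spaca7* and *Klk1b4* were listed at 0 in all 8, so 5 of the 7 genes were fitted. The lines also differed in the fibroblast collagen *Col1a1*. It was at 6.27 ± 1.00 TPM in control ESCs here (SD, n = 2) and at 168 ± 42.1 TPM in those of the *Pcgf1* line (SD, n = 4). The part of feeder RNA in differences between the lines was not tested. In 4-OHT treated against control ESCs 0 of 5 were called, and 2.54% of all 20279 genes were. *Mobp* was at 2.65 and 2.43 TPM in control ESCs and at 0.81 and 1.02 TPM after 4-OHT, groups that did not overlap, but its log2 fold change of -1.38 (SE 0.83) did not pass limma's test (adjusted *p* = 0.486). *Cd6* was higher in each treated ESC library, 0.49 and 1.81 TPM in control and 2.62 and 3.00 TPM after 4-OHT (1.45, SE 0.56, adjusted *p* = 0.239 in limma), whereas in *Pcgf1*-KO ESCs it was lower than in control. *Lrrc18* was at 0.12 and 0.12 TPM in control and 0 and 0.11 TPM in treated ESCs, and *Klk1b3* at 0.19 and 0.18 TPM and at 0.34 and 0.17 TPM.

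In EBs of the point mutant line 0 of 5 genes were called after 4-OHT, and 4.53% of all genes were. *Cd6* was at 3.15 and 4.90 TPM in control and at 3.72 and 3.56 TPM in treated EBs (log2 fold change -0.11, SE 0.56). *Klk1b3* was at 1.03 and 0.63 TPM in control and at 0 and 0.34 TPM in treated EBs (-2.11, SE 0.71, adjusted *p* = 0.147 in limma). *Lrrc18* was at 0.28 and 0.62 TPM and at 0.21 and 0.28 TPM, and *Mobp* at 0.34 and 3.02 TPM and at 1.07 and 1.78 TPM, so both overlapped between the groups. *Ldb2*, the EB gene of the *Pcgf1* line, was at 0.11 TPM or below in all EB libraries here. Early EB markers summed to 815 and 1107 TPM in the control and 296 and 350 TPM in the treated EBs of this line, and their part in these values was not tested.

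**Figure D4:**
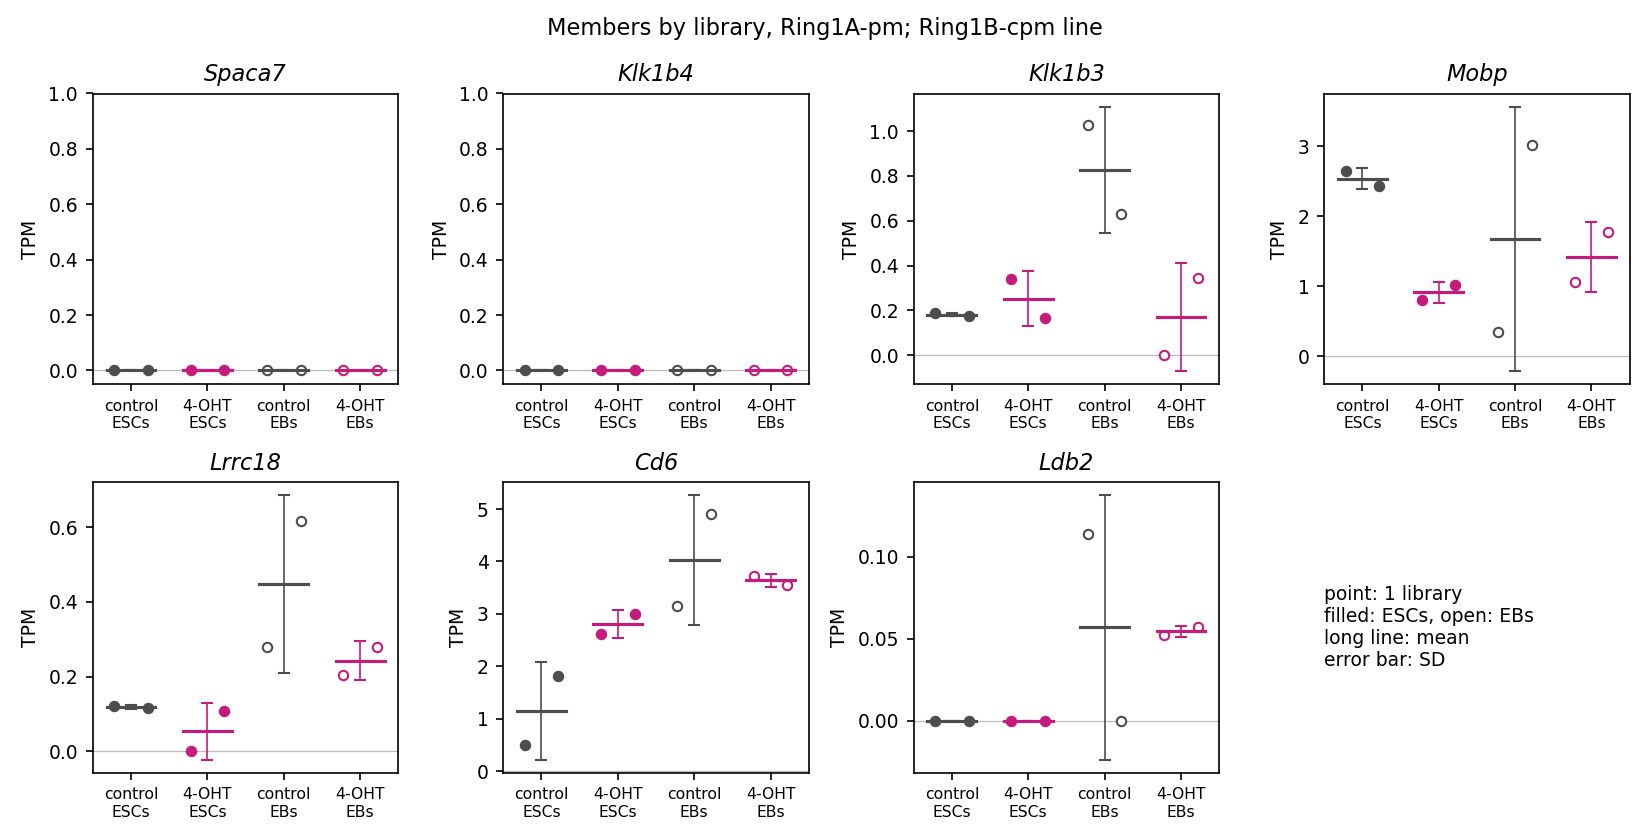
TPM (linear axis) of the 7 genes in each of the 8 libraries of the point mutant line, by group, with the mean as a long line and the SD as an error bar (n = 2 per group). *Spaca7* and *Klk1b4* are at 0 throughout, *Mobp* is lower in both 4-OHT treated ESC libraries (0.81 and 1.02 TPM) than in control ESCs (2.65 and 2.43 TPM), and *Cd6* is higher in them.

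Between the stages of the point mutant line, 0 of 5 genes were called in control EBs against control ESCs (4.73% of all genes were) or in treated EBs against treated ESCs (0.133%). *Cd6* had the largest value among them in control cells (1.93, SE 0.56, adjusted *p* = 0.106 in limma), followed by *Klk1b3* (1.69, adjusted *p* = 0.239) and *Lrrc18* (1.25, adjusted *p* = 0.226). The change of the 4-OHT effect from ESCs to EBs was called for 0 of 5 genes and for 0.00986% of all genes. In these 5 comparisons of the point mutant line 1, 1, 3, 1 and 1 of the 5 genes, respectively, had an unadjusted *p* under 0.05, and a *p* that misses the threshold does not show that the groups were alike.

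In the other lines the condition given by the name of the data is not the one on the label for 4 of 8 *Ring1A/B*, 6 of 8 *Pcgf2/4*, 5 of 8 *Pcgf3/5* and 6 of 8 *Pcgf6* libraries, and for 0 in the *Pcgf1* and point mutant lines. In the *Ring1A/B* line both libraries labelled mutant ESCs are named as control EBs and had early EB markers at 1397 and 1465 TPM, and both labelled control EBs are named as mutant ESCs and had these markers at 198 and 206 TPM. A fit by label therefore sets libraries of unlike stage against each other, and its calls are not read as an effect of the loss of RING1A and RING1B. It called 5 of the 7 genes between the libraries labelled mutant and control ESCs, with 48.8% of all genes called, and 1 of the 7 between those labelled mutant and control EBs, with 33.3% of all genes called.

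The *Ring1A/B* values are given by the names of the data, with 2 libraries per group and no test. *Mobp* was at 7.07 and 8.46 TPM in ESCs named control and 1.41 and 1.59 TPM in those named mutant, whereas in EBs it was at 0.20 and 0.31 TPM in those named control and 1.03 and 0.66 TPM in those named mutant. *Klk1b4* was at 1.57 and 1.58 TPM in ESCs named control and 0.81 and 0.34 TPM in those named mutant, and at 0 and 0.24 TPM and at 0.17 and 1.00 TPM in the EBs. *Klk1b3* was at 1.64 and 1.68 TPM and at 1.14 and 0.48 TPM in the ESCs, and at 0.34 and 0.67 TPM and at 0.32 and 0.95 TPM in the EBs. For these 3 genes the ESC libraries named mutant lay below those named control, and the EB libraries did not. The share of all genes with such an order between groups of 2 libraries was not computed, so nothing is read from it.

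*Lrrc18* was at 1.07 and 1.90 TPM in ESCs named control and 0.62 and 0.36 TPM in those named mutant, and at 1.28 and 1.39 TPM in EBs named control and 0.10 and 0 TPM in those named mutant. *Ldb2* was at 2.09 and 1.86 TPM in EBs named control and at 0 and 0.16 TPM in those named mutant, and at 0.21 TPM or below in the ESCs. *Cd6* was at 8.24 and 7.40 TPM and at 2.82 and 3.05 TPM in these EBs, and ran the other way in ESCs, at 2.60 and 2.85 TPM in those named control and 4.18 and 3.68 TPM in those named mutant. *Spaca7* was listed at 0 in 7 of the 8 libraries of this line.

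In the *Pcgf2/4* and *Pcgf6* lines all 4 labelled groups, and in the *Pcgf3/5* line 2 of 4, hold 1 library named as ESCs and 1 named as EBs. The spread within these groups thus includes the difference between the stages, and the fits by label, which called 0 members at either stage, say nothing about the mutants. Of all genes they called 0% in the *Pcgf2/4* line at both stages (limma, unadjusted *p* under 0.05 for 166 and 190 of 19250), 0.0401% and 0.0301% in the *Pcgf3/5* line, and 0% in the *Pcgf6* line at both stages (118 and 202 of 19695). Of the members, 1 at each stage of the *Pcgf3/5* line had an unadjusted *p* under 0.05.

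*Mobp* ranged from 0.46 to 4.02 TPM in the *Pcgf3/5* line, where the 4 libraries whose data are named as ESCs were at 2.63 to 4.02 TPM and the 4 named as EBs at 0.46 to 0.76 TPM. It was at 0.14 to 1.25 TPM in the *Pcgf2/4* line and at 0.07 to 0.51 TPM in the *Pcgf6* line. *Klk1b4* and *Klk1b3* were listed at 0 in all 8 *Pcgf2/4* libraries, *Klk1b4* in all 8 *Pcgf6* libraries and *Ldb2* in all 8 *Pcgf3/5* libraries. *Cd6* was above 0 in every library of these 3 lines, at 0.50 to 3.26 TPM. Means by the names of the data rest on 2 libraries per group and carry no test. For *Mobp* in control and mutant ESCs they were 1.12 and 0.718 TPM (*Pcgf2/4*), 2.77 and 3.96 TPM (*Pcgf3/5*) and 0.277 and 0.303 TPM (*Pcgf6*). For *Cd6* they were, in the same order, 0.913 and 0.822 TPM, 0.949 and 1.95 TPM, and 0.811 and 1.37 TPM in ESCs. In EBs the *Cd6* means were 0.967 and 0.947 TPM, 2.53 and 3.22 TPM, and 0.906 and 1.15 TPM.

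Over all 59 libraries, *Spaca7* was listed at 0 in 43, *Klk1b4* in 40, *Ldb2* in 36 and *Klk1b3* in 29, and *Lrrc18* in 4, *Mobp* in 3 and *Cd6* in 2. The highest values were 8.46 TPM for *Mobp*, 8.24 TPM for *Cd6*, 2.93 TPM for *Lrrc18*, 2.64 TPM for *Spaca7*, 2.09 TPM for *Ldb2*, 2.03 TPM for *Klk1b4* and 1.76 TPM for *Klk1b3*. The highest values of *Spaca7*, *Klk1b4*, *Klk1b3* and *Lrrc18* were in control ESCs of the *Pcgf1* line, and those of *Mobp*, *Cd6* and *Ldb2* in the *Ring1A/B* line.

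**Figure D5:**
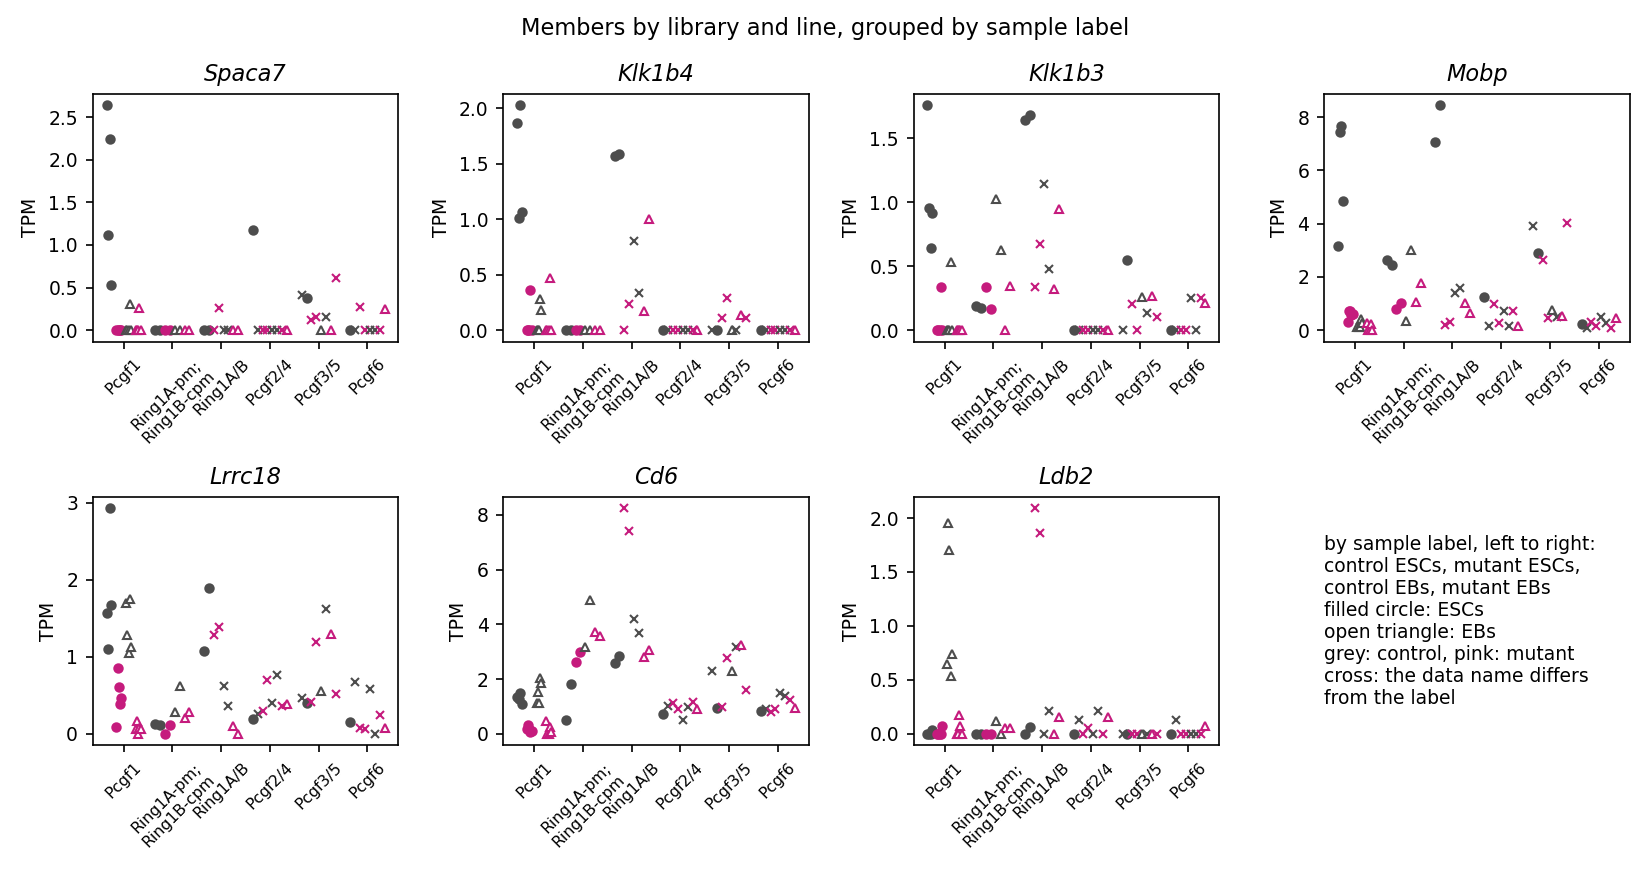
TPM (linear axis) of the 7 genes in all 59 libraries, by line and by sample label within a line, with crosses where the name of the data differs from the label. *Mobp* reached 8.46 TPM in *Ring1A/B* control ESCs and *Ldb2* passed 1 TPM only in the *Pcgf1* and *Ring1A/B* lines.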

How the data were processed

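RNA-seq libraries (59) of ESCs and EBs were grouped by their sample labels. In 4 lines labels and data names disagree, and there fits by label are given as counts only. Control and mutant values by name are given for the *Ring1A/B* line, and in the other lines of these only for *Mobp* and *Cd6*. The authors aligned the reads, of 75 or 50 bp, with STAR (version 2.5.2b) to mm9 and deposited TPM per gene symbol. Their fold changes came from DESeq2, which was not used here because it needs counts. Depth is unknown, and 0 of 1711 pairs of libraries held identical values. The kit's strand setting is not given in the sources used here.

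Fits were made with limma (version 3.58.1, R version 4.3.3) on log2(TPM + 0.1), separately for every line with its 4 groups together, with a variance trend, genes above 0 TPM in at least 1 library of the line, and Benjamini-Hochberg adjustment over all of them at 0.05. The fit was tested on simulated data. Tables and plots used Python (version 3.11.15), pandas (version 2.3.3) and matplotlib (version 3.10.9). Positions are those of GENCODE vM1 on mm9, and promoters those of RefSeq. The genes named are the 7 members, *Pcgf1*, the *Klk1* and *Klk1b* genes, up to 2 neighbours on each side, at most 4 genes per list (those called with the largest change, otherwise the most abundant) and the 3 genes most correlated with each member. *Alcam*, *Cd5*, *Cd3e*, *Col1a1*, the list genes called with the block and the genes at the edge of the selection were added after their values were seen. The gene just outside the selection in ESCs is not reported here. Members, lists and alternatives were chosen with earlier results of these data known.

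In the *Pcgf1* line, deviations from the group means correlated between same-numbered libraries in 18 of 18 pairs (r 0.32 to 0.65). The replicate numbers, taken from the titles, were used as the blocks. Libraries of unlike number were not compared, and replicates 2 and 3, and replicates 4 and 5, each share a library series. These correlations therefore cannot tell a shared replicate from a shared series, and the calls with the block rest on the numbers alone. For 1 *Pcgf1*-KO EB library the title says replicate 4 and another label 5, and the title was used.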

Additional observations from a re-analysis of the deposited data

Results flagged for a closer look

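In groups of 4 or 5 libraries of the *Pcgf1* line, 8 of 28 gene and group combinations held a library far from all others in its group. In each of the 8, every other library of the group was listed at 0, so any value above 0 stood apart, and the rate of about 1 in 20 that chance gives for continuous values does not apply. The library was replicate 4 in 7 of them, at 0.340 TPM for *Klk1b3* and 0.360 TPM for *Klk1b4* in *Pcgf1*-KO ESCs, 0.536 TPM for *Klk1b3* and 0.313 TPM for *Spaca7* in control EBs, 0.468 TPM for *Klk1b4* and 0.258 TPM for *Spaca7* in *Pcgf1*-KO EBs, and 0.0304 TPM for *Ldb2* in control ESCs. The remaining one was replicate 5 of the *Pcgf1*-KO ESCs for *Ldb2*, at 0.0675 TPM. Replicates 4 and 5 form 1 library series, in which 6241 to 7663 genes per library were listed at 0, against 7949 to 9139 in the other replicates. The part of this difference in the 8 values was not tested.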

How the results depend on the processing

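The median log2 fold change of the 7 genes in the *Pcgf1* line moved with the pseudocount, from -3.03 to -0.98 in ESCs with 1, and from -0.87 to -0.15 with 1 and to -2.47 with 0.01 in EBs. With the replicate block, under which the median changed little, neighbours called rose from 0 to 4 in ESCs and from 0 to 3 in EBs, and list genes called from 3 to 17 and from 11 to 32. With a pseudocount of 1, 2 neighbours and 7 list genes were called in ESCs and 1 neighbour in EBs. In EBs 1 neighbour was also called with a mean of at least 1 TPM, median-of-ratios scaling or quantile normalization. Quantile normalization gave 5 list genes in ESCs, and a fit of only the groups compared gave 4 in EBs. In the point mutant line the block called 1 member, *Cd6*, in control EBs against control ESCs (1.93, adjusted *p* = 0.0470 in limma). Same-numbered libraries there correlated at r 0.26 to 0.38, but with 2 pairs they share only a number. In the *Ring1A/B* line by label, where the labelled groups differ in stage markers and the counts are not read as a mutant effect, 2 members were called in ESCs with a mean of at least 1 TPM and 3 with no filter (5 otherwise), and in EBs 0 with a pseudocount of 1 and 2 with median-of-ratios scaling (1 otherwise).

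Without 1 replicate, the medians ranged from -3.07 to -2.78 in ESCs and -1.16 to -0.66 in EBs. The 7 genes were selected on these same contrasts, so the ranges of the medians are a description and show no robustness. In EBs the range is that of *Mobp*, which was low in both groups there. Neighbours called ranged from 0 to 1 in ESCs (1 without control replicate 3) and 0 to 2 in EBs (1 without control replicate 1, 2 without *Pcgf1*-KO replicate 3). List genes called ranged from 2 to 4 in ESCs and 6 to 15 in EBs (7 without control replicate 3, 6 without *Pcgf1*-KO replicate 4 or 5). *Ring1A/B* members called ranged from 3 to 4 in ESCs (3 without either control) and 0 to 1 in EBs (0 without control replicate 1 or mutant replicate 2). Groups of 2 left with 1 library rest on the spread of the other groups. Across these omissions the EB log2 fold change of *Spaca7* ranged from -0.41 to 0.37 and that of *Klk1b4* from -0.69 to 0.13, so neither has a settled sign there. The cause of these shifts was not tested. Depth is unknown, so values near 0 TPM have no interval.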
